A study of Homo sapiens with 12 samples.

Results

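The 59 genes described here are nuclear genes for subunits of respiratory chain complexes I to IV. They were chosen by gene symbol, by a rule that uses no measured value but was set with earlier results of these data known, and all 59 were found among the 60612 named rows of a table of read counts per gene. Of them, 36 belong to complex I, 4 to complex II, 9 to complex III and 10 to complex IV. All 59 were tested in each of the 5 comparisons, and 56 averaged 100 or more normalized counts, where a normalized count is the read count divided by the size factor of its library.

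The cells were ZR-75-1, a human breast cancer line that carries the oestrogen receptor. CRISPR editing of bulk cells with a non-targeting guide gave the sgControl clones, and editing with a guide against *RB1* gave the isogenic *RB1*-knockout clones. How many clones of each genotype were sequenced is not given in the sources used here, so a difference between genotypes cannot be told apart from a difference between clones. Cells of each genotype received DMSO, the solvent, or 500 nM abemaciclib for 5 days, and each of the 4 groups had 3 biological replicates. Abemaciclib inhibits CDK4 and CDK6, the kinases that phosphorylate the retinoblastoma protein Rb, which *RB1* encodes.

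The respiratory chain passes electrons from NADH and succinate to oxygen across the inner mitochondrial membrane and, at complexes I, III and IV, pumps protons. Complex I oxidizes NADH, complex II oxidizes succinate, complex III hands electrons to cytochrome c and complex IV reduces oxygen. Most subunits are encoded in the nucleus, translated in the cytosol and imported, and they are assembled with a smaller set of subunits encoded by mitochondrial DNA. The transcription factors NRF1, the ETS family factor GABP and YY1 are known to bind promoters of many of the nuclear genes, and E2F factors, which Rb restrains, bind promoters of cell cycle genes.

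Library totals ranged from 39907318 to 81636393 counts. *RB1* had normalized counts of 4154, 4825 and 4752 in sgControl cells in DMSO, against 39.6, 49.6 and 51.2 in *RB1*-knockout cells in DMSO. In abemaciclib it had 2252, 2375 and 2489 in sgControl cells and 54.4, 44.2 and 63.5 in knockout cells. *RB1* mRNA thus fell with abemaciclib in sgControl cells (log2 fold change -0.95) and was not called in the knockout (0.20). The part of this fall in the results below was not tested. All 8 luminal markers were abundant in every library, the lowest value being 6157 for *ESR1*. Of 11 markers of other cell types, *CD3E* was at 0, *PTPRC*, *CD68* and *PECAM1* did not pass 6.1, *COL1A2* and *COL3A1* did not pass 2.3, and *PDGFRB* did not pass 18.3. The other 4 moved with the treatment. *LYZ* had 16.7 to 33.5 normalized counts in untreated sgControl cells and 437.5 to 544.4 in treated ones, against 6.8 to 39.7 in all knockout libraries. *VWF* rose in both genotypes, from 20.5 to 38.4 in DMSO to 84.2 to 101.9 in abemaciclib, and *COL1A1* from 1879 to 2392 in DMSO to 2556 to 3031. *DCN* reached 18.3 to 23.8 in treated sgControl cells and at most 5.0 elsewhere. Their part in the results was not tested.

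One library bears on nearly every value below. In sgControl cells in DMSO, replicate 1 held more subunit mRNA than its fellow replicates: 55 of the 56 subunits above the count of 100 were higher there than in the mean of the other 2 replicates, with a median log2 difference of 0.39. Replicate 3 of the same group lay lower, with a median of -0.31. Cytosolic ribosomal protein mRNAs moved the same way, by 0.51 in replicate 1 and -0.42 in replicate 3. The summed normalized count of the 59 genes was 500017, 401547 and 367515 in this group. In abemaciclib the sgControl libraries had sums of 447686, 411071 and 440734, which lie within that range. The *RB1*-knockout libraries held 398211, 415892 and 399615 in DMSO and 384355, 367990 and 380240 in abemaciclib, and these 2 groups did not overlap. The sum thus did not separate treated from untreated sgControl cells, while individual subunits did.

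**Figure D1:**
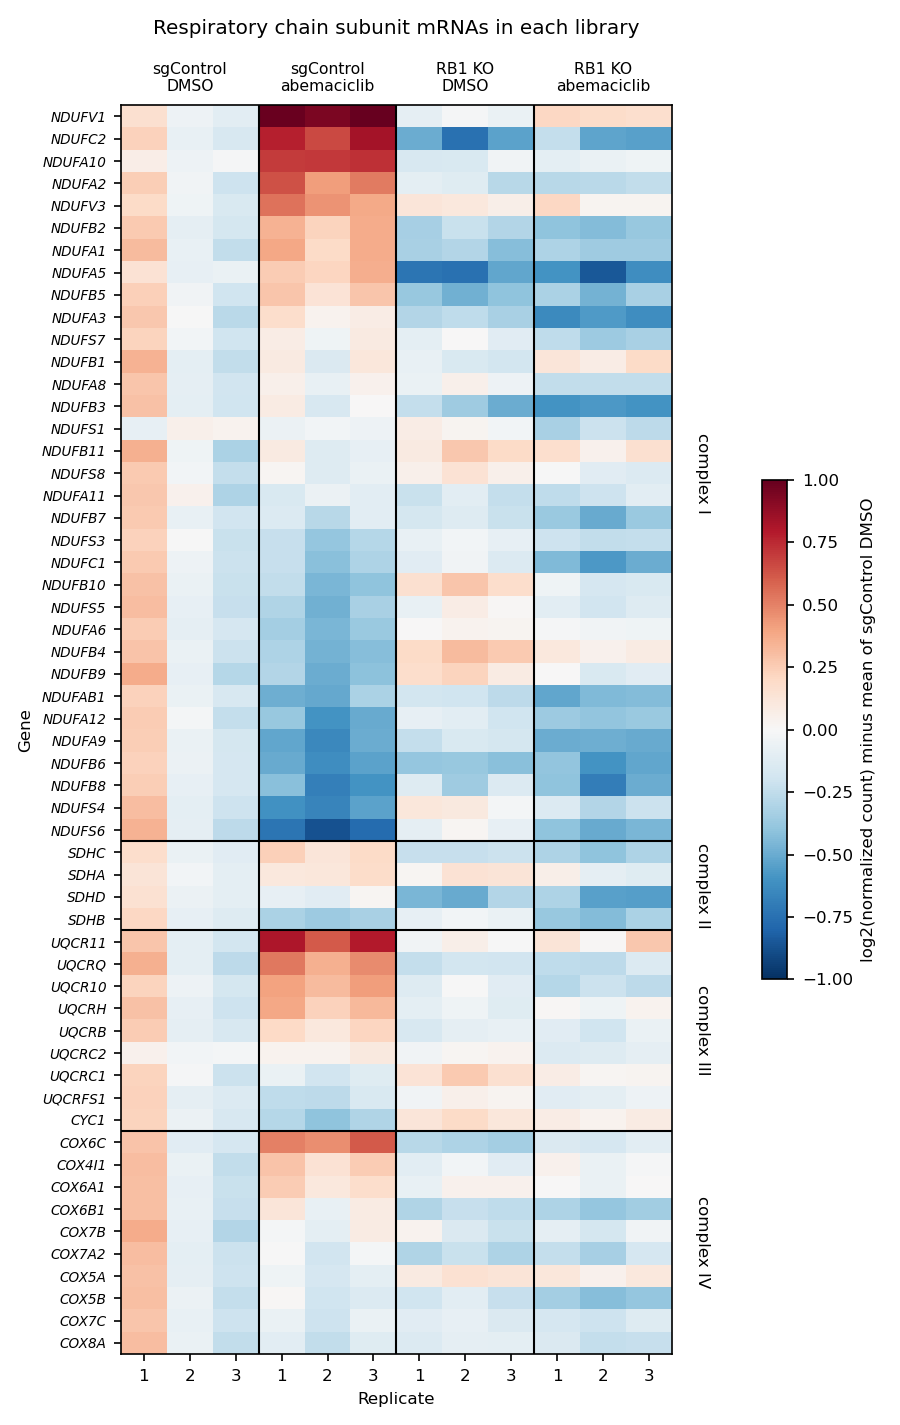
Each row is 1 of the 56 subunit mRNAs that averaged 100 or more normalized counts, grouped by complex and ordered by the sgControl response, and each column is 1 of the 12 libraries. Colour is log2(normalized count) minus the mean log2 value of sgControl cells in DMSO, with the scale ending at -1 and 1. Replicate 1 of sgControl in DMSO is high for 55 of 56 rows, and sgControl cells in abemaciclib show both the highest and the lowest values of complex I.

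Levels per kilobase of the canonical transcript can be set side by side between genes if the libraries covered whole transcripts, as the kit named in the labels would. On that scale the median mean level was 10377 normalized counts per kb for complex IV, 8973 for complex III, 4744 for complex I and 1810 for complex II. *COX4I1* (33486), *NDUFB10* (32282) and *COX6B1* (32094) were highest. At the other end, *NDUFA7*, *NDUFA13* and *NDUFV2* had mean normalized counts of only 6.0, 38.8 and 12.0. Each of these 3 genes overlaps another annotated gene on the same strand. Of the 20 subunit genes with such an overlap, 7 had a mean normalized count under 1000, among them *NDUFB8* (462), *NDUFA11* (571), *NDUFC2* (808) and *SDHD* (876), and 0 of the 39 without one did. *NDUFV1*, *NDUFS1*, *NDUFS3*, *NDUFA6*, *NDUFA9*, *NDUFB2*, *NDUFB5*, *NDUFB6*, *NDUFC1*, *UQCR11*, *SDHA*, *COX6A1* and *COX8A* are the others of the 20, and some subunit genes, such as *COX6C* and *UQCR10*, overlap genes on the opposite strand, so their counts may be uncertain. How reads in shared stretches were counted is not given in the sources used here, and its part in these low values was not tested. For *NDUFV2* the row of its pseudogene *NDUFV2P1* held between 1512% and 17700% of the parent's own counts in a library. Pseudogene rows held 12.0% to 26.5% of the counts of *SDHA* and 2.96% to 4.17% of those of *UQCRFS1*, and less than 1.2% for any other subunit.

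Promoters were searched for the letters of known binding motifs because the results below are changes in mRNA. RefSeq promoter windows (GRCh38.p14, 250 bases before to 50 after the start) were at hand for 51 of the 59 genes, and both strands were read. NRF1 was searched as GCGCATGC, ETS as CCGGAAG, YY1 as AAGATGGC, and E2F as TTTGGCGC, TTTCCCGC, TTTGGCGG or TTTCGCGC. None of these strings contains another. The NRF1 letters were in the windows of 10 subunit genes (19.6%, against 3.68% of all 27305 genes with a window), the ETS letters in 15 (29.4% against 12.2%), the YY1 letters in 9 (17.6% against 3.52%) and the E2F letters in 6 (11.8% against 4.05%). Of the 51 genes, 9 held 2 or more of the motifs and 21 held none. The 3 stretches below are of the 250 bases before the start, and belong to subunits whose responses are described later. *UQCR11* rose in sgControl cells, *NDUFS6* had the largest fall there among the abundant subunits, and *SDHB* fell alike in both genotypes. The 3 were picked after these responses were known, and all 3 hold searched letters. The windows of *NDUFV1*, *NDUFA10* and *NDUFB6*, whose responses are also described later by library, held none of the searched letters. Capitals mark the searched letters, which are ETS in *UQCR11* (117 and 97 bases before the start), E2F and NRF1 in *NDUFS6* (67 and 46 bases before it), and NRF1 and ETS in *SDHB* (200 and 128 bases before it). The window of *SDHB* also held YY1 letters, outside the stretch shown.
UQCR11, chr19:1605463-1605712, minus strand: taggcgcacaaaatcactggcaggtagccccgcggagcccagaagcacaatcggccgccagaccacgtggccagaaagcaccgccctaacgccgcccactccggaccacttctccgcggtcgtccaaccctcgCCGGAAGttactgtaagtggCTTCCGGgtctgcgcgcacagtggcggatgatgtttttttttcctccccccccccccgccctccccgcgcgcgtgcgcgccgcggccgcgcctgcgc
NDUFS6, chr5:1801157-1801406, plus strand: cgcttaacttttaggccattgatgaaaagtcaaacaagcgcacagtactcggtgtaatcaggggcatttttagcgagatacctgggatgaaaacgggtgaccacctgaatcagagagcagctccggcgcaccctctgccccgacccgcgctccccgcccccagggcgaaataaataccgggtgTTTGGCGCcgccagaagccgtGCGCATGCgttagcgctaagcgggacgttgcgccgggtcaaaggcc
SDHB, chr1:17054033-17054282, minus strand: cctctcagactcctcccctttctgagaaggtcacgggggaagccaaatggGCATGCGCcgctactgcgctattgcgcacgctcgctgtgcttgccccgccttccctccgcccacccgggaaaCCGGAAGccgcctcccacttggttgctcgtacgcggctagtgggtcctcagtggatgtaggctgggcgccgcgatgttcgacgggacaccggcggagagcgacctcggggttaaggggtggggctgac
Such a match describes the letters only. Among the 15 subunits that fell in sgControl cells and had a window, 5 held YY1 letters, 4 NRF1, 2 ETS and 2 E2F letters. Among the 11 that rose, 0 held YY1 letters, 1 NRF1, 4 ETS and 0 E2F letters. Among the 25 that were not called, 4 held YY1 letters, 5 NRF1, 9 ETS and 4 E2F letters.

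The first comparison asked how sgControl cells, with *RB1* intact, responded to abemaciclib. The subunits did not move as a block: 15 rose and 18 fell of 59, which is 25.4% and 30.5%, with a median log2 fold change of -0.05. Over all genes tested, 24.8% rose and 24.6% fell with a median of 0.01, so the number called was near that background. Libraries of the 2 groups did not overlap for 10 subunits that were higher and 18 that were lower, against 28.6% and 26.9% of all genes tested. What the data show is therefore which subunits went up and which went down. The canonical transcripts had a median length of 1308 bases for those that rose (421 to 5725) and 693.5 for those that fell (495 to 8356). It was 713.5 for those not called. The part of transcript length in the split was not tested. In complex I, 9 rose and 15 fell of 36. In complex II, 1 rose and 1 fell of 4, in complex III 4 rose and 2 fell of 9, and in complex IV 1 rose and 0 fell of 10 by DESeq2, where edgeR and an unadjusted p under 0.05 also gave 0 falls. Leaving out replicate 1 of sgControl in DMSO gave 24 higher and 17 lower, against backgrounds of 25.7% and 25.8%. Leaving out replicate 3 gave 11 and 26, against 25.4% in each direction. Of the calls with all libraries, 10 of the 15 rises and 16 of the 18 falls held in each of the 20 alternative fits described in the closing section.

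The core of complex I holds the NADH-binding and iron-sulfur subunits that carry electrons. *NDUFV1* encodes the flavin-bearing subunit that takes electrons from NADH (chromosome 11, 67605653 to 67612554, plus strand, GRCh38). It had 18342, 15773 and 15191 normalized counts in DMSO and 32427, 31517 and 33724 in abemaciclib. Every treated sgControl library lay above every untreated one, with a log2 fold change of 0.99 ± 0.07 (SE, adjusted p = 1.1e-47), the largest rise among the abundant subunits. *NDUFS3*, a core subunit of the arm that faces the matrix, fell (-0.31 ± 0.09, adjusted p = 0.0022). The other core subunits counted at more than 100, *NDUFS1*, *NDUFS7* and *NDUFS8*, lay between -0.07 and 0.03 and were not called. *NDUFV2*, which carries an iron-sulfur cluster beside *NDUFV1*, was called lower at -1.89 ± 0.63, but on normalized counts of 14.0, 17.6 and 21.4 against 8.6, 4.4 and 1.8.

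Accessory subunits surround this core and are needed for its assembly and stability. *NDUFS6* (chromosome 5, 1801407 to 1816048, plus strand) takes part in a late step of building the NADH-oxidizing module. It had 10904, 8058 and 7141 normalized counts in DMSO and 5171, 4679 and 5026 in abemaciclib, a fall of 0.81 ± 0.12 on the log2 scale (adjusted p = 1.9e-11). The treated and untreated libraries did not overlap. *NDUFS4*, which joins the same module late, fell too (-0.61 ± 0.11), as did *NDUFA12* (-0.50 ± 0.10). *NDUFA10*, an accessory subunit of the membrane arm (chromosome 2, 239892450 to 240025743, minus strand), went the other way. It had 5319, 4901 and 5032 normalized counts in DMSO and 8246, 8292 and 8444 in abemaciclib. Those 6 values form 2 tight groups, with a log2 fold change of 0.71 ± 0.05 (adjusted p = 1.7e-42).

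*NDUFV1* and *NDUFS6* belong to the same module of complex I, and, as for any pair of genes, their ratio within a library does not depend on library scaling. The log2 ratio of *NDUFV1* to *NDUFS6* was 0.75, 0.97 and 1.09 in untreated and 2.65, 2.75 and 2.75 in treated sgControl cells. In *RB1*-knockout cells it was 0.94, 0.90 and 0.95 in DMSO and 1.54, 1.63 and 1.56 in abemaciclib. The means of the untreated genotypes differed by less than the spread between replicates, both treated groups lay above them, and the treated sgControl libraries lay highest. The pair was chosen for its difference, so this is a description.

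The other accessory subunits of complex I that rose in sgControl cells were *NDUFC2* (0.75 ± 0.12), *NDUFA2* (0.52 ± 0.10), *NDUFV3* (0.45 ± 0.09), *NDUFB2* (0.30 ± 0.09), *NDUFA1* (0.30 ± 0.11), *NDUFA5* (0.28 ± 0.09) and *NDUFB5* (0.22 ± 0.10). Those that fell were *NDUFB8* (-0.57 ± 0.13), *NDUFA9* (-0.56 ± 0.10), *NDUFB6* (-0.56 ± 0.09), *NDUFAB1* (-0.45 ± 0.09), *NDUFB4* (-0.42 ± 0.10), *NDUFB9* (-0.42 ± 0.12), *NDUFA6* (-0.40 ± 0.09), *NDUFS5* (-0.39 ± 0.11), *NDUFB10* (-0.38 ± 0.11) and *NDUFC1* (-0.33 ± 0.10). *NDUFAB1* is the mitochondrial acyl carrier protein and also serves fatty acid synthesis. By family, 4 of 13 NDUFA subunits (with *NDUFAB1*) rose and 4 fell, 3 of 13 NDUFB and NDUFC subunits rose and 6 fell, and of the 4 accessory NDUFS and NDUFV subunits 1 rose and 3 fell. *NDUFA3*, *NDUFA8*, *NDUFA11*, *NDUFB1*, *NDUFB3*, *NDUFB7* and *NDUFB11* were not called, with values from -0.18 (*NDUFB7*) to 0.08 (*NDUFA3*). *NDUFA7* (1.34 ± 0.74) and *NDUFA13* (0.46 ± 0.31) were not called either, and both had the low counts given above.

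Complex II is succinate dehydrogenase, the only complex built from nuclear genes alone. *SDHC* encodes one of its membrane anchors. It had 17880, 15117 and 14657 normalized counts in DMSO and 18703, 17171 and 18116 in abemaciclib, and was called higher at 0.18 ± 0.07 (adjusted p = 0.027) although the groups overlapped. *SDHB* encodes the iron-sulfur subunit (chromosome 1, 17018664 to 17054032, minus strand). It had 3944, 3216 and 3123 in DMSO and 2742, 2652 and 2720 in abemaciclib, with no overlap and a log2 fold change of -0.34 ± 0.08 (adjusted p = 9.3e-05). The catalytic subunit *SDHA* (0.13 ± 0.08) and the anchor *SDHD* (-0.06 ± 0.10) were not called.

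In complex III, 4 small supernumerary subunits rose: *UQCR11* (0.73 ± 0.11), *UQCRQ* (0.43 ± 0.12), *UQCR10* (0.37 ± 0.09) and *UQCRH* (0.30 ± 0.10). *UQCR11* (chromosome 19, 1597169 to 1605473, minus strand) had 1727, 1332 and 1252 normalized counts in DMSO and 2497, 2173 and 2471 in abemaciclib, with no overlap. *CYC1*, cytochrome c1, is one of the electron-carrying subunits and fell (-0.34 ± 0.08, adjusted p = 0.00016), from 17057, 14037 and 13093 to 11999, 11083 and 11900. The Rieske iron-sulfur protein *UQCRFS1* was called lower as well (-0.23 ± 0.09, adjusted p = 0.016), a call that did not hold in every alternative fit. *UQCRC1* (-0.14 ± 0.09), *UQCRC2* (0.06 ± 0.04) and *UQCRB* (0.16 ± 0.09) were not called.

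In complex IV, *COX6C* was the only one of 10 nuclear subunits that was called, with 7065, 5357 and 5159 normalized counts in DMSO and 8239, 8000 and 8867 in abemaciclib (0.51 ± 0.10, adjusted p = 5.5e-07). Even the lowest treated library lay above the high replicate 1 of the DMSO group. The lowest value of the complex was that of *COX8A* (-0.17 ± 0.11, adjusted p = 0.18), with 5466, 4217 and 3707 against 4084, 3723 and 4055. *COX4I1*, *COX5A*, *COX5B*, *COX6A1*, *COX6B1*, *COX7A2*, *COX7B* and *COX7C* lay between -0.13 and 0.21.

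**Figure D2:**
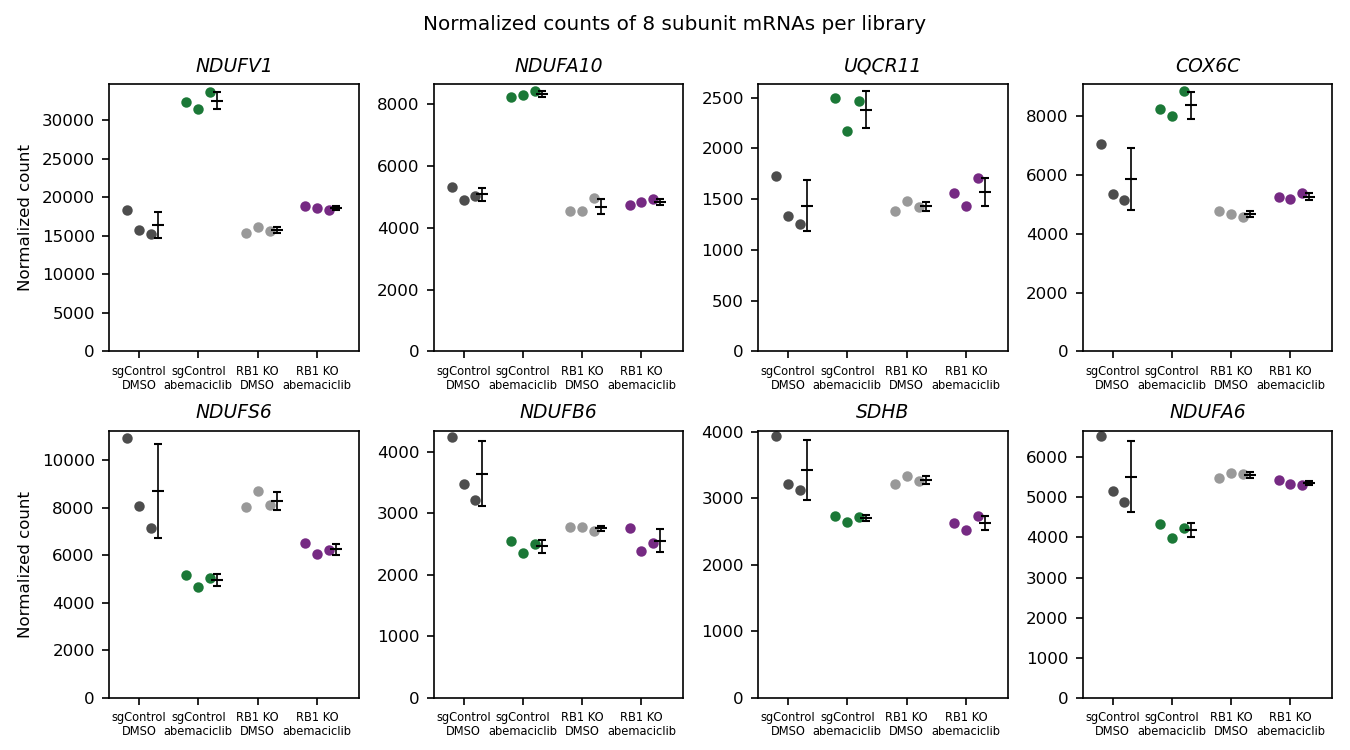
Each point is the normalized count of 1 library, 3 per group, for 8 subunit mRNAs, with the group mean and SD (n = 3) beside the points; vertical axes start at 0. *NDUFV1*, *NDUFA10*, *UQCR11* and *COX6C* are highest in sgControl cells in abemaciclib, and *NDUFS6* and *NDUFA6* are lowest there. *NDUFB6* is lower there than in untreated sgControl cells but overlaps the treated knockout libraries, and *SDHB* is low in abemaciclib in both genotypes.

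The second comparison asked for the response to abemaciclib in *RB1*-knockout cells. It was small and leaned downwards: 2 subunits were called higher and 12 lower, 3.39% and 20.3% of the 59, with a median log2 fold change of -0.10. Of all genes tested, 15.0% were called higher and 15.1% lower, with a median of 0.02. Over the 56 subunits that averaged 100 or more normalized counts, the log2 fold changes ran from -0.41 (*NDUFC1*) to 0.27 (*NDUFB1*, not called), and their SD was 0.16 against 0.38 in sgControl cells. Although few subunits were called, libraries of the 2 groups did not overlap for 31 subunits that were lower and 4 that were higher, against 24.7% and 24.8% of all genes tested. The fit shares 1 estimate of spread over all 12 libraries, including the scattered sgControl DMSO group. Fitted on the 6 knockout libraries alone, 28 subunits were lower and 4 higher, against backgrounds of 20.9% and 18.2%.

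*NDUFV1* was again higher in *RB1*-knockout cells, with 15394, 16214 and 15656 normalized counts in DMSO and 18860, 18642 and 18415 in abemaciclib, which is 0.24 ± 0.07 (adjusted p = 0.0019). *NDUFV2* was at 0.40 ± 0.59. *NDUFA13* was called higher (1.11 ± 0.35) on normalized counts of 12.3, 23.1 and 28.4 against 41.9, 52.6 and 45.4, a call lost in part of the alternative fits. *NDUFC1* had the lowest value, with 4603, 4862 and 4530 in DMSO and 3666, 3342 and 3533 in abemaciclib (-0.41 ± 0.10, adjusted p = 0.0004). *NDUFS6* fell from 8033, 8700 and 8101 to 6492, 6034 and 6230 (-0.41 ± 0.12, adjusted p = 0.0029).

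*NDUFS1*, the largest iron-sulfur subunit of complex I (chromosome 2, 206114817 to 206159509, minus strand), fell in *RB1*-knockout cells, with 5804, 5612 and 5390 normalized counts in DMSO and 4383, 4740 and 4584 in abemaciclib (-0.29 ± 0.05, adjusted p = 1.2e-06). It was the core subunit with the strongest fall there. In complex II, *SDHB* fell from 3222, 3345 and 3257 to 2626, 2525 and 2743 (-0.32 ± 0.08, adjusted p = 0.00087), while *SDHD* was at -0.05 ± 0.10. In complex III, *UQCRC2* was called lower by a small amount (-0.12 ± 0.04, adjusted p = 0.016), and the extremes were *UQCR11* (0.13 ± 0.11) and *UQCR10* (-0.17 ± 0.09), neither of them called. In complex IV, 0 of 10 passed the DESeq2 test, and 0 passed in edgeR or at an unadjusted p under 0.05. Their values ran from -0.21 ± 0.11 (*COX5B*) to 0.17 ± 0.10 (*COX6C*). The other subunits called lower were *NDUFB10* (-0.33 ± 0.11), *NDUFB8* (-0.32 ± 0.13), *NDUFA3* (-0.32 ± 0.10), *NDUFA9* (-0.31 ± 0.10), *NDUFS4* (-0.28 ± 0.11), *NDUFAB1* (-0.25 ± 0.09) and *NDUFS7* (-0.25 ± 0.09).

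Set side by side, 1 subunit (*NDUFV1*) was called higher in both genotypes and 8 were called lower in both: *NDUFA9*, *NDUFAB1*, *NDUFB8*, *NDUFB10*, *NDUFC1*, *NDUFS4*, *NDUFS6* and *SDHB*. No subunit was called in opposite directions. Another 14 were called higher, and 10 lower, in sgControl cells while not passing the test in the knockout, 5 were called in the knockout alone, and 21 in neither. The same counts over all genes tested were not made, so these numbers only describe the subunits and cannot be set against a background. Since a call in one genotype and not in the other is no test of a difference, the interaction was tested.

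The interaction compared the 2 responses directly, as the knockout response minus the sgControl response. It was called negative for 16 subunits and positive for 4, which is 27.1% and 6.78% of the 59, with a median of -0.08. Of all genes tested, 20.2% were negative and 21.0% positive, with a median of 0.03. Without replicate 1 of sgControl in DMSO the numbers were 29 negative and 4 positive, against backgrounds of 22.0% and 22.8%, and without replicate 3 they were 13 and 12, against 20.6% and 21.6%. The lean towards negative values turned with scaling by total counts, which gave 9 negative and 15 positive with a median of 0.05, where all genes had 15.7% negative, 27.7% positive and a median of 0.16. With mitochondrial rows left out of the totals there were 11 negative and 13 positive, against 16.6% and 25.5%. The subunit median was then 0.02 against 0.13 for all genes. Under each of these scalings it lay below that of all genes, but not without replicate 3 (0.03 against 0.02).

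The most negative interaction was that of *NDUFV1*, which rose more in sgControl than in knockout cells (-0.74 ± 0.10, adjusted p = 5.4e-14). It was followed by *NDUFA10* (-0.67 ± 0.07, adjusted p = 1.8e-18), which had 4552, 4560 and 4966 normalized counts in knockout cells in DMSO and 4751, 4843 and 4932 in abemaciclib. *NDUFA2* (-0.62 ± 0.14), *UQCR11* (-0.60 ± 0.16), *NDUFC2* (-0.59 ± 0.17), *UQCR10* (-0.54 ± 0.12), *NDUFV3* (-0.46 ± 0.13), *UQCRQ* (-0.44 ± 0.17), *NDUFB2* (-0.43 ± 0.13), *COX6C* (-0.34 ± 0.14), *NDUFA5* (-0.30 ± 0.13) and *SDHC* (-0.29 ± 0.10) likewise had risen in sgControl cells. These 12 thus make up most of the 16. *NDUFA3* (-0.40 ± 0.15), *NDUFS1* (-0.25 ± 0.08) and *UQCRC2* (-0.18 ± 0.06) were instead called lower in the knockout without a call in sgControl cells, and *SDHA* (-0.28 ± 0.11) was called in neither.

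The positive interactions were those of *NDUFB6* (0.45 ± 0.13, adjusted p = 0.0021), *NDUFS6* (0.41 ± 0.16), *NDUFA6* (0.34 ± 0.13) and *NDUFV2* (2.29 ± 0.86, on normalized counts of at most 21.4). *NDUFB6* is an accessory subunit of the membrane arm (chromosome 9, 32553001 to 32573184, minus strand). It fell in sgControl cells from 4242, 3469 and 3219 normalized counts to 2555, 2351 and 2493, while the knockout libraries had 2772, 2783 and 2711 in DMSO and 2753, 2392 and 2522 in abemaciclib. The untreated knockout libraries were thus already below the untreated sgControl libraries. *NDUFA6* had 6524, 5152 and 4870 in untreated sgControl cells and 4332, 3994 and 4235 in treated ones, and stayed between 5313 and 5615 in all 6 knockout libraries. By complex, 9 subunits of complex I, 2 of complex II, 4 of complex III and 1 of complex IV had a negative interaction, and the 4 positive ones were all in complex I. Of these 20 calls, the negative ones of *NDUFA2*, *NDUFA10*, *NDUFB2*, *NDUFC2*, *NDUFV1*, *NDUFV3*, *UQCR10* and *UQCR11* and the positive one of *NDUFB6* held in each of the 19 alternative fits that could be made.

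**Figure D3:**
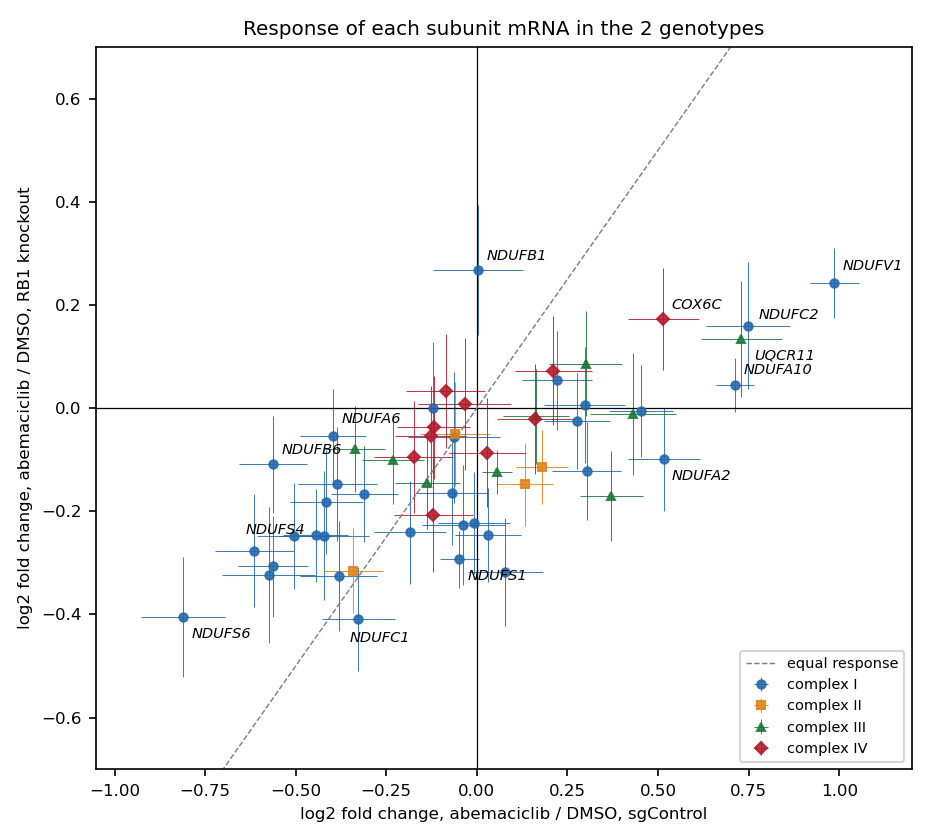
Each point is 1 of 56 subunit mRNAs, with its log2 fold change to abemaciclib in sgControl cells on the horizontal axis and in *RB1*-knockout cells on the vertical axis; bars are SE from the 12-library fit, colours and symbols are complexes, and the dashed line marks equal responses. sgControl values spread from -0.81 to 0.99 and knockout values from -0.41 to 0.27, and *NDUFV1*, *NDUFA10* and *UQCR11* lie far to the right of the line.

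The genotypes were also compared at equal treatment. In DMSO, 0 subunits were called higher and 14 lower in *RB1*-knockout cells, with a median log2 fold change of -0.12. Over all genes tested 16.2% were higher and 15.2% lower, with a median of 0.00. This count depends on 2 libraries that pull in opposite directions: without replicate 1 of sgControl in DMSO 14 were higher and 10 lower (backgrounds 20.2% and 18.6%), whereas without replicate 3 they were 0 and 27 (backgrounds 16.9% and 16.8%). edgeR called 1 higher and 14 lower, and at an unadjusted p under 0.05 DESeq2 gave 2 higher and 17 lower. The 8 lower calls that held in each of 20 alternative fits were *NDUFA5* (-0.66 ± 0.09), *NDUFC2* (-0.60 ± 0.12), *NDUFB5* (-0.43 ± 0.10), *SDHD* (-0.42 ± 0.10), *NDUFB6* (-0.40 ± 0.09), *NDUFA1* (-0.36 ± 0.11), *COX6C* (-0.33 ± 0.10) and *SDHC* (-0.23 ± 0.07). *NDUFA5* (chromosome 7, 123536997 to 123557904, minus strand), an accessory subunit of the matrix arm, had 4068, 3471 and 3508 normalized counts in untreated sgControl cells and 2215, 2194 and 2568 in untreated knockout cells. Its libraries did not overlap between genotypes in either treatment. No subunit gene lies on chromosome 13, which carries *RB1*, and the median change of genes within 5 Mb of a subunit gene ran from -0.23 to 0.14.

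In abemaciclib the genotypes lay further apart. In *RB1*-knockout cells 28 subunits were lower and 8 higher than in sgControl cells, with a median of -0.19. Of all genes tested, 26.4% were lower and 27.5% higher, with a median of 0.02. By complex, 15 of 36 were lower in complex I, 3 of 4 in complex II, 6 of 9 in complex III and 4 of 10 in complex IV. Among the lower subunits the largest differences were those of *NDUFC2* (-1.19 ± 0.12), *NDUFA5* (-0.96 ± 0.09), *NDUFV1* (-0.80 ± 0.07), *NDUFA2* (-0.79 ± 0.10) and *NDUFA10* (-0.78 ± 0.05). *NDUFC2* had 1347, 1244 and 1400 normalized counts in treated sgControl cells and 669, 546 and 540 in treated knockout cells, and it shares its locus with the read-through gene *NDUFC2-KCTD14*. The 8 higher subunits were *NDUFB4* (0.48 ± 0.10), *NDUFS4* (0.39 ± 0.11), *CYC1* (0.39 ± 0.08), *NDUFA6* (0.35 ± 0.09), *NDUFS6* (0.33 ± 0.12), *NDUFB9* (0.31 ± 0.12), *NDUFB10* (0.25 ± 0.11) and *NDUFV2* (1.59 ± 0.64). The value of *NDUFV2* rests on 8.6, 4.4 and 1.8 normalized counts in treated sgControl cells against 10.2, 16.8 and 16.1 in treated knockout cells, and it turned to -0.0913 when the pseudogene row was added. This comparison and the sgControl response share the treated sgControl libraries.

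**Figure D4:**
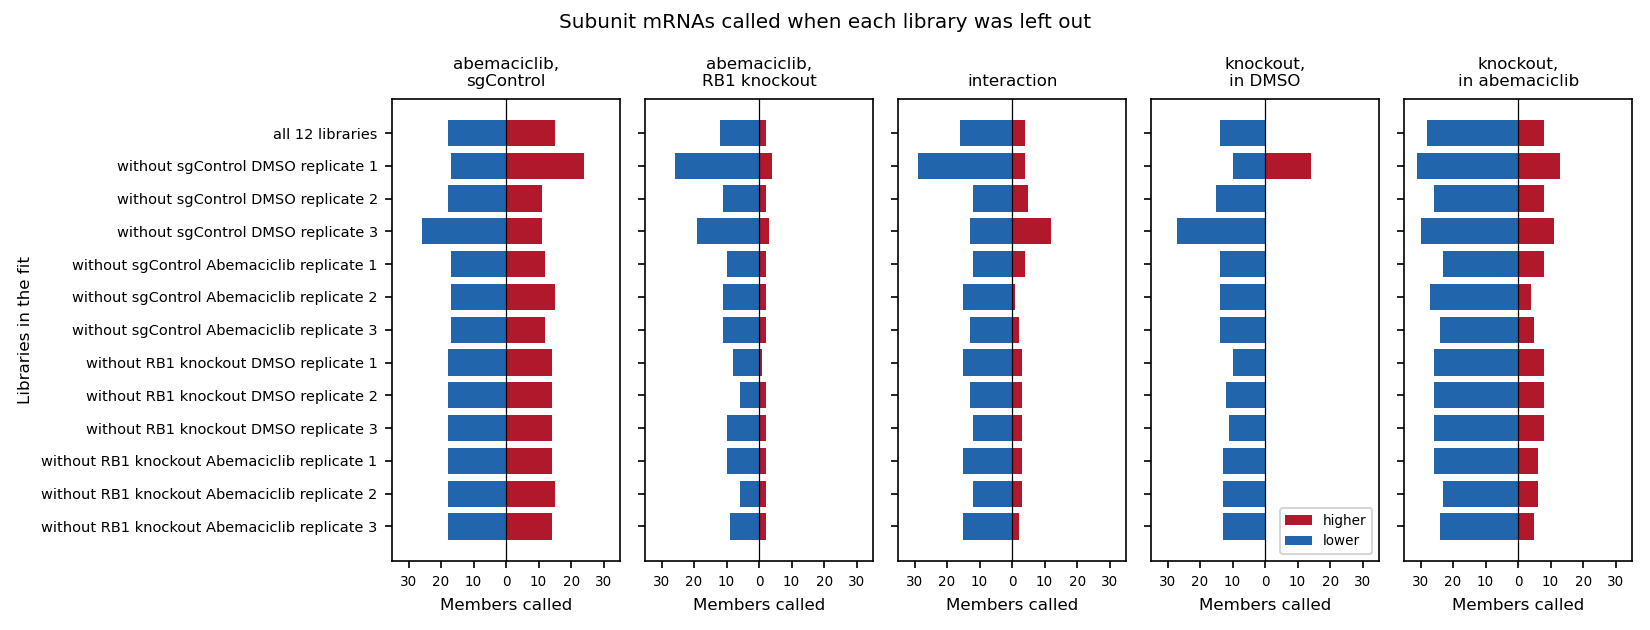
Bars give the number of the 59 subunit mRNAs called higher (red, to the right) and lower (blue, to the left) in each of the 5 comparisons, with all 12 libraries and with each library left out in turn. Leaving out sgControl DMSO replicate 1 or 3 moves the counts for knockout against sgControl in DMSO from 0 higher and 14 lower to 14 and 10 or to 0 and 27.

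Subunits encoded by mitochondrial DNA, the partners of these proteins, moved as a block. Of 13, 12 rose and 0 fell in sgControl cells (median 1.04), and 11 rose and 0 fell in *RB1*-knockout cells (median 0.57). The rises were 92.3% and 84.6%, against 24.8% and 15.0% of all genes tested, of which 24.6% and 15.1% fell. By edgeR 12 rose in each genotype, and neither tool nor an unadjusted p under 0.05 gave a fall. *MT-CO1*, the catalytic subunit of complex IV, had 493123, 455382 and 335640 normalized counts in untreated sgControl cells and 1407190, 1131150 and 1157040 in treated ones (1.52 ± 0.18, adjusted p = 1.4e-16). In knockout cells it went from 405295, 425478 and 374681 to 872884, 645022 and 627857 (0.83 ± 0.18). The largest rise in sgControl cells was that of *MT-ND1* (1.97 ± 0.13). *MT-ND6*, the one subunit gene on the light strand, was at 0.07 ± 0.12 in sgControl cells and rose in the knockout (0.91 ± 0.12, adjusted p = 2.8e-13), with a positive interaction of 0.83 ± 0.17 where 6 of the other 12 had negative ones. Mitochondrial genes held 2.82% to 4.13% of the counts in DMSO and 5.44% to 8.53% in abemaciclib. Scaling by total counts, which includes them, gave 11 nuclear subunits higher and 27 lower in sgControl cells, against 20.3% and 30.4% of all genes, whose median was then -0.12.

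The nuclear subunits of ATP synthase, the enzyme that uses the proton gradient, moved little with abemaciclib. Of 15, 2 rose and 3 fell in sgControl cells and 1 rose and 3 fell in the knockout. *ATP5F1A*, the alpha subunit of the catalytic head, had the most negative interaction (-0.41 ± 0.08), being higher with abemaciclib in sgControl cells (0.21 ± 0.05) and lower in the knockout (-0.20 ± 0.05). Of 16 complex I assembly factors, 1 rose and 5 fell in sgControl cells, and 1 rose and 5 fell in the knockout (6.25% and 31.2% in each). *NDUFAF1* went up in the sgControl genotype (0.67 ± 0.08) and down in the knockout (-0.39 ± 0.09), an interaction of -1.06 ± 0.12 (adjusted p = 5.6e-18), while *NDUFAF3* fell in sgControl cells (-0.73 ± 0.10). Of 33 assembly factors tested for complexes II to IV, 10 rose and 11 fell in sgControl cells (30.3% and 33.3%) and 3 rose and 10 fell in the knockout (9.09% and 30.3%). In sgControl cells they ran from *COX17* (-0.88 ± 0.09), a copper chaperone, to *COX16* (0.88 ± 0.17).

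Mitochondrial ribosomal proteins, which build the ribosome that translates the mitochondrially encoded subunits, are another nuclear-encoded group. Of 77 tested, 48 fell and 4 rose in sgControl cells (62.3% and 5.19%, median -0.30), and 34 fell and 1 rose in the knockout (44.2% and 1.3%, median -0.22). The shares of all genes tested that fell and rose were 24.6% and 24.8% in sgControl cells and 15.1% and 15.0% in the knockout. *MRPL39* (-1.12 ± 0.10) and *MRPL11* (-1.11 ± 0.12) had the largest falls in sgControl cells, and *MRPL11* had the largest positive interaction (1.08 ± 0.17).

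Among 11 regulators of respiratory gene transcription, 3 rose and 5 fell in sgControl cells, and 0 rose and 3 fell in knockout cells by DESeq2, with 0 rises also in edgeR and at an unadjusted p under 0.05. The rises and falls in sgControl cells were 27.3% and 45.5%, against 24.8% and 24.6% of all genes tested. The falls in knockout cells were 27.3%, and of all genes tested 15.0% rose and 15.1% fell there. *GABPB1*, the beta partner of GABP, fell most (-1.31 ± 0.07, adjusted p = 4.8e-82), followed by *NRF1* (-1.13 ± 0.08), *GABPA* (-0.70 ± 0.12), *TFAM*, which packages and transcribes mitochondrial DNA (-0.53 ± 0.05), and *YY1* (-0.18 ± 0.05). These 5 also had the 5 positive interactions, from 0.23 ± 0.07 for *YY1* to 1.09 ± 0.09 for *GABPB1*, while *POLRMT* (-0.57 ± 0.08) and *TFB2M* (-0.54 ± 0.11) had negative ones. *PPARGC1B* (0.49 ± 0.17), *ESRRA* (0.26 ± 0.06) and *POLRMT*, the mitochondrial RNA polymerase (0.16 ± 0.06), rose in sgControl cells, and *PPRC1* (0.16 ± 0.08) was not called. In knockout cells *TFB2M* (-0.59 ± 0.08), *POLRMT* (-0.41 ± 0.06) and *GABPB1* (-0.21 ± 0.07) fell. *PPARGC1A* had a mean normalized count of only 8.

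**Figure D5:**
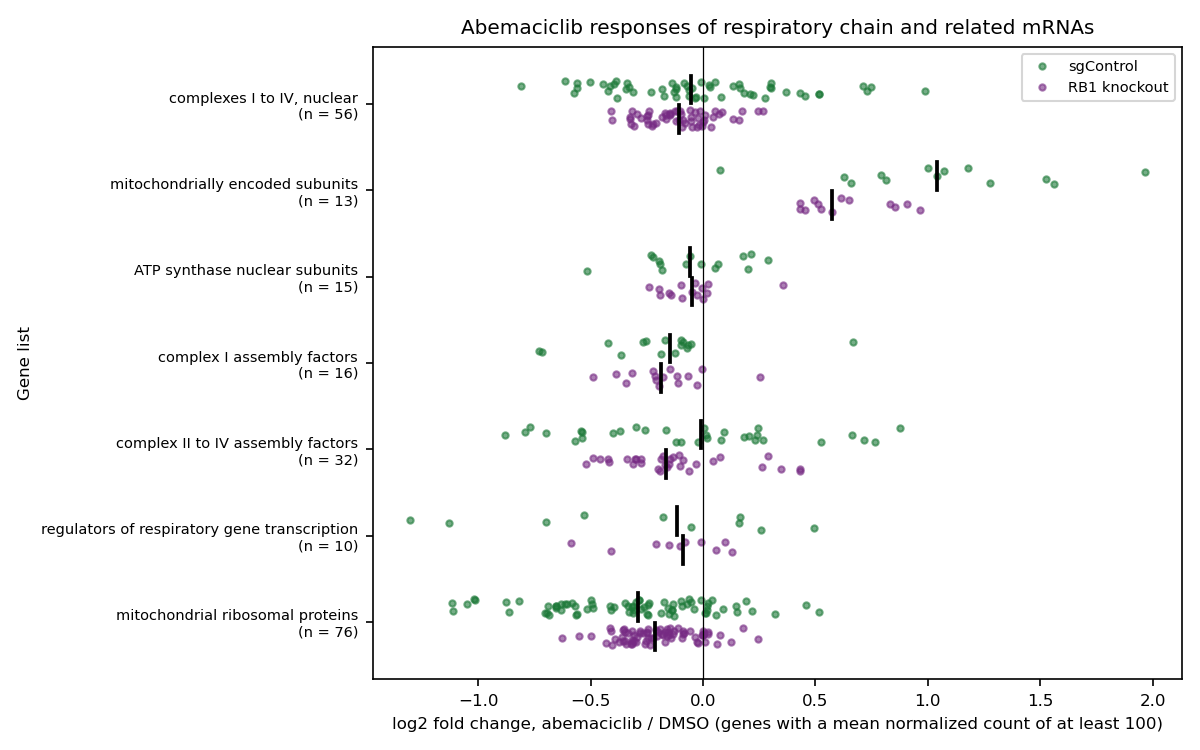
Each point is the log2 fold change of 1 gene to abemaciclib in sgControl cells (green) or *RB1*-knockout cells (purple), for genes that averaged 100 or more normalized counts, by gene list; black bars are medians and the number of genes stands under each list name. The mitochondrially encoded subunits lie to the right (medians 1.04 and 0.57), the nuclear subunits of complexes I to IV lie on both sides of 0, and the mitochondrial ribosomal proteins lie mostly to the left.

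Of the subunit isoforms and subunits named late, *NDUFA4*, now counted with complex IV, was called higher in sgControl cells (0.25 ± 0.11, adjusted p = 0.037), with normalized counts from 16134 to 23202 in DMSO and from 21013 to 23877 in abemaciclib, which overlap. It was lower in knockout than in sgControl cells in both treatments (-0.40 ± 0.11 and -0.66 ± 0.11). *COX7A2L*, a supercomplex factor, was called higher in sgControl cells (0.27 ± 0.10). The tissue-restricted isoforms *COX4I2*, *COX6A2* and *COX8C* had mean normalized counts that rounded to 0. *COX6B2* was called lower in sgControl cells on low normalized counts of 11.2, 5.3 and 7.6 in DMSO and 0, 0.9 and 1.8 in abemaciclib. *UQCRHL* was called higher there (0.31 ± 0.14), and *NDUFA4L2* was not called.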

How the data were processed

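RNA from 12 ZR-75-1 cultures was sequenced. The deposited values are raw read counts per gene: the authors trimmed reads with BBDuk, aligned them to hg38 with STAR 2.7.5b and counted them with featureCounts 2.0.1 (versions from the submitters' processing notes) against GENCODE release 35, without normalization or pooling. Whether counting used strand or kept reads with several alignments is not given in the sources used here. The labels name a directional whole-transcript kit and the study's general methods a 3′ kit; with a 3′ kit, levels per kilobase would not compare between genes. Of 60656 rows, 44 had no symbol, held 0% of counts and were left out.

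DESeq2 1.42.0 (R 4.3.3) was fitted to all 12 libraries with 1 coefficient per group and no replicate term. Size factors were medians of ratios, tests were two-sided Wald tests, and p-values were adjusted by Benjamini-Hochberg over the genes left by independent filtering, with a threshold of 0.05. Adjusted p-values are from this fit, and rose, fell, higher and lower refer to it; log2 fold changes are given with their SE and no shrinkage. The fit was also run on simulated counts with the same spread for every gene and no shift between replicates. It was thus not tested on libraries that differ as those of sgControl in DMSO do. Alternatives were edgeR 4.0.16, other scalings and filters, pseudogene rows added to their parents, fits on the compared groups alone, a replicate block and leaving out each library. What libraries with the same number have in common is not stated. Deviations from group means correlated over 11885 genes by 0.15, 0.259 and 0.112 for same-numbered sgControl and knockout libraries in abemaciclib. In no other pair of groups were all values above 0.1, though single ones reached 0.368 (sgControl in DMSO with knockout in abemaciclib, replicate 1). The fit to all 12 libraries takes every library as unpaired, and only the replicate block uses the numbers.

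Groups came from the labels. Coordinates and overlaps are from GENCODE release 44 on GRCh38, another release than the one counted. Values by library are given for *RB1* in all 4 groups. They are also given for many, not all, of the members with the highest and lowest response in each complex. Core and accessory subunits of complex I were taken apart for this. The extremes of the interaction are given by library as well. For some of these members only part of the groups is shown. Other genes given by library, and the pair used for the ratio, were chosen after their values were seen. From other lists, at most the 2 highest and 2 lowest per comparison are named, or all genes of a list of 11 or fewer; *MT-CO1*, *MT-ND6*, *LYZ*, *VWF*, *DCN*, *COL1A1* and the isoforms were also chosen after their values were seen. The 59 genes and the lists were chosen with earlier results of these data known.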

Additional observations from a re-analysis of the deposited data

Results flagged for a closer look

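The response to abemaciclib differed between sgControl and *RB1*-knockout cells, by the test of the interaction itself, for 4 subunits in the positive and 16 in the negative direction. The interaction is the log2 fold change in the knockout minus that in sgControl cells. The 4 and 16 are 6.78% and 27.1% of the 59, against 21.0% and 20.2% of all genes tested. Scaling by total counts gave 15 positive and 9 negative ones, against 27.7% and 15.7% of all genes. Leaving mitochondrial rows out of the totals gave 13 and 11, against 25.5% and 16.6%. The direction of the lean thus depends on the scaling. Under each scaling the subunit median lay below that of all genes (-0.08 against 0.03, 0.05 against 0.16, 0.02 against 0.13). Without sgControl DMSO replicate 3 it did not (0.03 against 0.02).

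In complex I it was -0.74 for *NDUFV1*, -0.67 for *NDUFA10*, -0.62 for *NDUFA2*, -0.59 for *NDUFC2*, -0.46 for *NDUFV3*, -0.43 for *NDUFB2*, -0.40 for *NDUFA3*, -0.30 for *NDUFA5* and -0.25 for *NDUFS1*. It was 0.45 for *NDUFB6*, 0.41 for *NDUFS6*, 0.34 for *NDUFA6* and 2.29 for *NDUFV2*, the last on very low counts. In complexes II and III it was -0.28 for *SDHA*, -0.29 for *SDHC*, -0.18 for *UQCRC2*, -0.44 for *UQCRQ*, -0.54 for *UQCR10* and -0.60 for *UQCR11*, and in complex IV it was -0.34 for *COX6C*.

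All of these interactions share the 3 sgControl DMSO libraries, whose replicate 1 held more, and whose replicate 3 held less, of nearly every subunit mRNA. The part of these libraries in single values was tested only by leaving each out.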

How the results depend on the processing

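Counts of subunits called, as higher and lower, were 15 and 18 for abemaciclib in sgControl, 2 and 12 in the knockout, 4 and 16 for the interaction, and 0 and 14 in DMSO and 8 and 28 in abemaciclib for knockout against sgControl. Leaving out 1 library at a time gave 11 to 24 and 17 to 26, 1 to 4 and 6 to 26, 1 to 12 and 12 to 29, 0 to 14 and 10 to 27, and 4 to 13 and 23 to 31 for these comparisons in turn; where the sgControl DMSO group was cut to 2 libraries, replicate 1 gave the highest number of rises in sgControl (24) and of falls in the knockout (26), and replicate 3 gave 12 positive interactions. The lowest counts of falls in the knockout (6) came without knockout DMSO replicate 2 or knockout abemaciclib replicate 2, and the single positive interaction (1) without sgControl abemaciclib replicate 2, with 2 without replicate 3 of sgControl or of the knockout in abemaciclib. Subunits higher in the knockout in abemaciclib were 4 without sgControl abemaciclib replicate 2, 5 without replicate 3 of either genotype in abemaciclib, and 13 without sgControl DMSO replicate 1. Falls in the knockout were 8 without knockout DMSO replicate 1 and 19 without sgControl DMSO replicate 3. Total-count size factors gave 15 positive and 9 negative interactions, 2 higher in the knockout in DMSO and 16 higher in abemaciclib, and put the median of all genes at 0.16 for the interaction; without mitochondrial rows in the total these counts were 13 positive, 2 and 14, and the knockout response had 4 rises. On the compared groups alone the knockout response had 4 rises and 28 falls. In DMSO, 1 subunit was higher in the knockout with edgeR, with the filter of 10 counts in 3 libraries and with the replicate block. The replicate block gave 8 higher and 27 lower in abemaciclib, where same-numbered libraries correlated, and moved no other count by more than 1.5 times apart from that 1. With pseudogene rows added, *NDUFV2* reversed to -0.0913 for knockout against sgControl in abemaciclib. Over single genes and alternatives, 5516 values kept their side of the threshold, 210 passed it newly, 213 lost it and 1, that of *NDUFV2*, was labelled as reversed. Other values could change sign without that label. For knockout against sgControl in DMSO, the subunit median was -0.12 with all libraries and 0.02 without sgControl DMSO replicate 1. Replicates per group number 3, which limits the power for small changes, and counts of 3 subunits were too low for reliable folds. Interactions could not be fitted on the compared groups alone, since all 4 groups enter them.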
